A study of Homo sapiens with 2 samples.

Results

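The genes described here encode the nuclear pore complex and the machinery that carries cargo through it. They were followed in C4-2B, a bone-metastatic, androgen-independent prostate cancer cell line derived from LNCaP, given 2.5 µM MA4-022-1, a dual inhibitor of BET bromodomain proteins and kinases, or DMSO as vehicle. Members were chosen by symbol from a list of 53 genes, and 52 of them had a row in the tables, out of 47168 named genes in all. Each group held 1 library of total RNA depleted of ribosomal RNA, which leaves every difference without a replicate check and without a p-value, and the exposure time was not given in the sources used here. All values are RPKM, read counts scaled to transcript length and to the mapped reads of the library. Each difference is given as a log2 ratio with MA4-022-1 on top, taken after adding 1 to both RPKM values, which understates the change of low genes. Judged from the steps of low values, the MA4-022-1 library held about 19883260 reads and the vehicle library about 27104874, and the 95% counting intervals below are of the plain RPKM ratio and cover counting error only.

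The nuclear pore is a ring-shaped channel through the nuclear envelope. Its scaffold consists of an outer ring, built from Y-shaped complexes, and an inner ring, and both hold the flexible nucleoporins that line the channel, while filaments reach into the cytoplasm and a basket into the nucleus. Carriers called karyopherins bring proteins in (importins) or out (exportins), and the small GTPase Ran, kept in its GTP form in the nucleus by RCC1 and switched off outside by RANGAP1, sets the direction. Dividing cells take the pores apart and rebuild them, and many of these proteins also act at kinetochores or on the spindle.

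Of the 52 genes found, 30 encode nucleoporins, 18 karyopherins and 4 proteins of the Ran cycle, and all 52 reached 1 RPKM in a library. For 45 the value came from rows of their own. The other 7, which are SEH1L, NUP188, NUP62, NUP98, NUPL2, IPO4 and IPO11, had only a row joined with neighbouring genes, so their values are shared with those neighbours and stand as uncertain. The remaining listed gene, NDC1, had no row under that symbol, and the row of its older symbol TMEM48 is given separately below. As a check of the label, 8 prostate markers were at 31.7 to 1675 RPKM with MA4-022-1 and at 54.8 to 1528 RPKM in the vehicle library. The top of both ranges was KLK3, read from a row joined with KLK2 and so shared with it. Of 7 markers of fibroblasts, leukocytes and endothelium, 6 stayed under 1 RPKM in both libraries, among them PDGFRB, listed at 0 with MA4-022-1 and at 0.858 RPKM in the vehicle library. The collagen gene COL1A1 stood at 5.03 RPKM with MA4-022-1 and 1.19 RPKM in the vehicle library, and the 7 markers summed to 5.92 RPKM with MA4-022-1 and 2.95 RPKM in the vehicle library. PECAM1 was not read, since its row lies on a patch sequence, where KPNA2 and POM121 also have rows at 0. The part of these markers in the results below was not tested, and in bulk RNA fewer cells and less RNA per cell cannot be told apart.

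Most of these genes were lower in the MA4-022-1 library. Of 52 members 41 had a ratio below 0, against 51.1% of all expressed genes and 55.7% of the protein-coding ones. At a threshold of 2-fold, 11 members (21.2%) were lower and 0 higher. Among all 15442 expressed genes, 9.56% passed it as lower and 7.73% as higher, and among 10400 expressed protein-coding genes these shares were 9.46% and 4.17%. At 1.5-fold, 18 members were lower and 0 higher, against 20.7% and 18.8% of all expressed genes. With 5 in place of 1 added to each RPKM, the 2-fold counts were 7 lower and 0 higher, against 4.27% and 2.86% of all expressed genes. The median log2 ratio was -0.40 over the members, -0.02 over all expressed genes and -0.09 over the protein-coding ones. The 11 lower members were NUP107, NUP85, NUP37, NUP155, NUP35 and NUP50 of the pore, RANGAP1 of the Ran cycle, and the carriers KPNA2, IPO5, XPOT and CSE1L. Just beyond the threshold stood RANGAP1, at 2.01-fold lower, and just short of it stood KPNB1 and KPNA3, at 1.98-fold and 1.95-fold lower. With the sums over expressed genes made equal, KPNB1, KPNA3 and RAN also passed 2-fold, at log2 ratios of -1.10, -1.06 and -1.05, which made 14 members. The highest ratio of any member was that of NUP214, 0.52.

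The promoters of the 4 members with the lowest ratios are shown because they belong to an importin, an exportin and a nucleoporin of each scaffold ring that were lower together. The sequences are from RefSeq on GRCh38.p14 and cover the 250 bases before the annotated start, read 5′ to 3′. Capitals mark the CCAAT box, searched as CCAAT, and the cell cycle homology region (CHR), searched as TTTGAA, each on both strands. CHR elements are known as binding sites of complexes that hold cell cycle genes off until late in the cycle, often with a CCAAT box nearby.
KPNA2, chr17:68035485-68035734, plus strand: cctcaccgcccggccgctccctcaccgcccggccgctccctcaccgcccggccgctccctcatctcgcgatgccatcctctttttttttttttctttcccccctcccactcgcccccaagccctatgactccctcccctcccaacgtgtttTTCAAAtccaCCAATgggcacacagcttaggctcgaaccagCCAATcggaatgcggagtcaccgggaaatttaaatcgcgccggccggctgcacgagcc
XPOT, chr12:64404142-64404391, plus strand: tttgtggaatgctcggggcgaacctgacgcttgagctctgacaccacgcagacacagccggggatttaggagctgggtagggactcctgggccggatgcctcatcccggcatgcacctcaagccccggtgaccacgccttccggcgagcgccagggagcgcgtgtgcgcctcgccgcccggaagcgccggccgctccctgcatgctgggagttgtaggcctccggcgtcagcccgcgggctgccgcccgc
NUP35, chr2:183124193-183124442, plus strand: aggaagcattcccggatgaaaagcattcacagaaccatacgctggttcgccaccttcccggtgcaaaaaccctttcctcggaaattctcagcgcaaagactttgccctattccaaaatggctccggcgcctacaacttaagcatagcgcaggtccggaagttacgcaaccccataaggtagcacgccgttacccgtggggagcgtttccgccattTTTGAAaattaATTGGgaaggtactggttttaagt
NUP37, chr12:102120115-102120364, minus strand: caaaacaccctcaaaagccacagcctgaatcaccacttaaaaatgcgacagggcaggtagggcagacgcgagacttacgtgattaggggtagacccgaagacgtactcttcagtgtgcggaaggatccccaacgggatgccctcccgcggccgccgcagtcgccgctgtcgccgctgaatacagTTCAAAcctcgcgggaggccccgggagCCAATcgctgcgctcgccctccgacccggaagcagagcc

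KPNA2, NUP35 and NUP37 each held both letter strings within 100 bases of the start, with the CHR letters beginning 99, 35 and 66 bases before it, and XPOT held neither. Entries were found for 46 of the 52 members. Both strings occurred in 3 of the 11 members at least 2-fold lower (27.3%), in 3 of the other 35 members (8.57%), in 4.89% of 8576 expressed protein-coding genes and in 5.79% of all 27305 genes of the table. The CHR letters alone were found in 4 of those 11 (36.4%), in 6 of the other 35 (17.1%) and in 12.2% of expressed protein-coding genes. The E2F strings TTTCCCGC and TTTGGCGC occurred in none of the 46 members, against 3.96% of expressed protein-coding genes. The E-box CACGTG, which MYC and related factors bind, was in 1 of the 11 (9.09%), in 7 of the other 35 (20.0%) and in 11.7% of expressed protein-coding genes. These matches describe letters in a window and the counts are small.

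The outer ring, made of Y complexes and the chromatin-binding protein AHCTF1, was mostly lower. Its 9 genes had a median log2 ratio of -0.44. Of these, 3 (33.3%) were at least 2-fold lower, against 9.56% of all expressed genes. A ratio below 0 was found for 8, against 51.1% of all expressed genes. NUP37 stood at 23.7 RPKM with MA4-022-1 and 62.1 RPKM in the vehicle library, a log2 ratio of -1.35. NUP85 stood at 16.1 against 41.2 RPKM, or 2.47-fold lower. NUP107, which recruits other subunits to the ring, was at 23.4 against 51.7 RPKM, or 2.16-fold lower. NUP107 belongs to the stem of the Y and the other two to its arms, and other subunits of the same assembly were closer to the vehicle level. NUP133, the stalk partner of NUP107, was at 16.6 against 22.9 RPKM, and NUP160, the neighbour of NUP37 and NUP85, was at 30.7 against 32.5 RPKM. NUP43 was at 19.2 against 26.5 RPKM. SEC13, which also coats secretory vesicles, was at 62.8 against 79.4 RPKM. SEH1L was read from a row joined with CEP192, at 124 against 178 RPKM. AHCTF1, also called ELYS, which starts pore assembly on chromatin after mitosis, was the exception at 28.2 against 20.9 RPKM, with a log2 ratio of 0.42 and a counting interval that ran from 0.37 to 0.50.

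The inner ring parted in the same way, with a pair of genes lower and the rest near the vehicle level. All 5 genes had a ratio below 0, against 51.1% of all expressed genes, and 2 (40.0%) were at least 2-fold lower, against 9.56%. Their median was -0.36, or -0.69 without the joined row of NUP188. NUP35, which binds the membrane and NUP155, stood at 10.7 RPKM with MA4-022-1 and 29.01 RPKM in the vehicle library, a log2 ratio of -1.36 (hg19 chromosome 2, 183982241 to 184047308). NUP155 itself was at 12.0 against 28.1 RPKM, or 2.24-fold lower. Their large partners were within 2-fold. NUP205 was at 32.9 against 37.9 RPKM, and NUP93, the linker that holds the ring together, was at 22.4 against 26.1 RPKM. The counting interval of the ratio covered 0 for both, with reads estimated from median transcript lengths of 612 and 590 nt. A longer assumed length would narrow these intervals, so whether the ratios differ from 0 by more than counting error stays undecided. NUP188, in a row joined with PHYHD1 and another transcript, was at 18.6 against 24.1 RPKM. The 5 levels lay within 1.58-fold of each other in the vehicle library and within 3.09-fold with MA4-022-1.

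Genes of the central channel and of the NUP98-RAE1 pair had a median of -0.20 and none passed 2-fold. NUPL1, known today as NUP58, was the most abundant nucleoporin message per length, at 181 RPKM with MA4-022-1 and 208 RPKM in the vehicle library. NUP54, which binds NUPL1 in the channel, was at 57.2 against 59.1 RPKM. NUP62, the third channel protein, was read from a row joined with IL4I1 and SIGLEC11, at 13.6 against 19.3 RPKM. NUP98, whose FG repeats form much of the permeability barrier, shared a row with CHRNA10, at 46.4 against 45.2 RPKM. RAE1, an mRNA export factor bound to NUP98, was at 8.14 against 12.4 RPKM, or 1.46-fold lower.

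**Figure D1:**
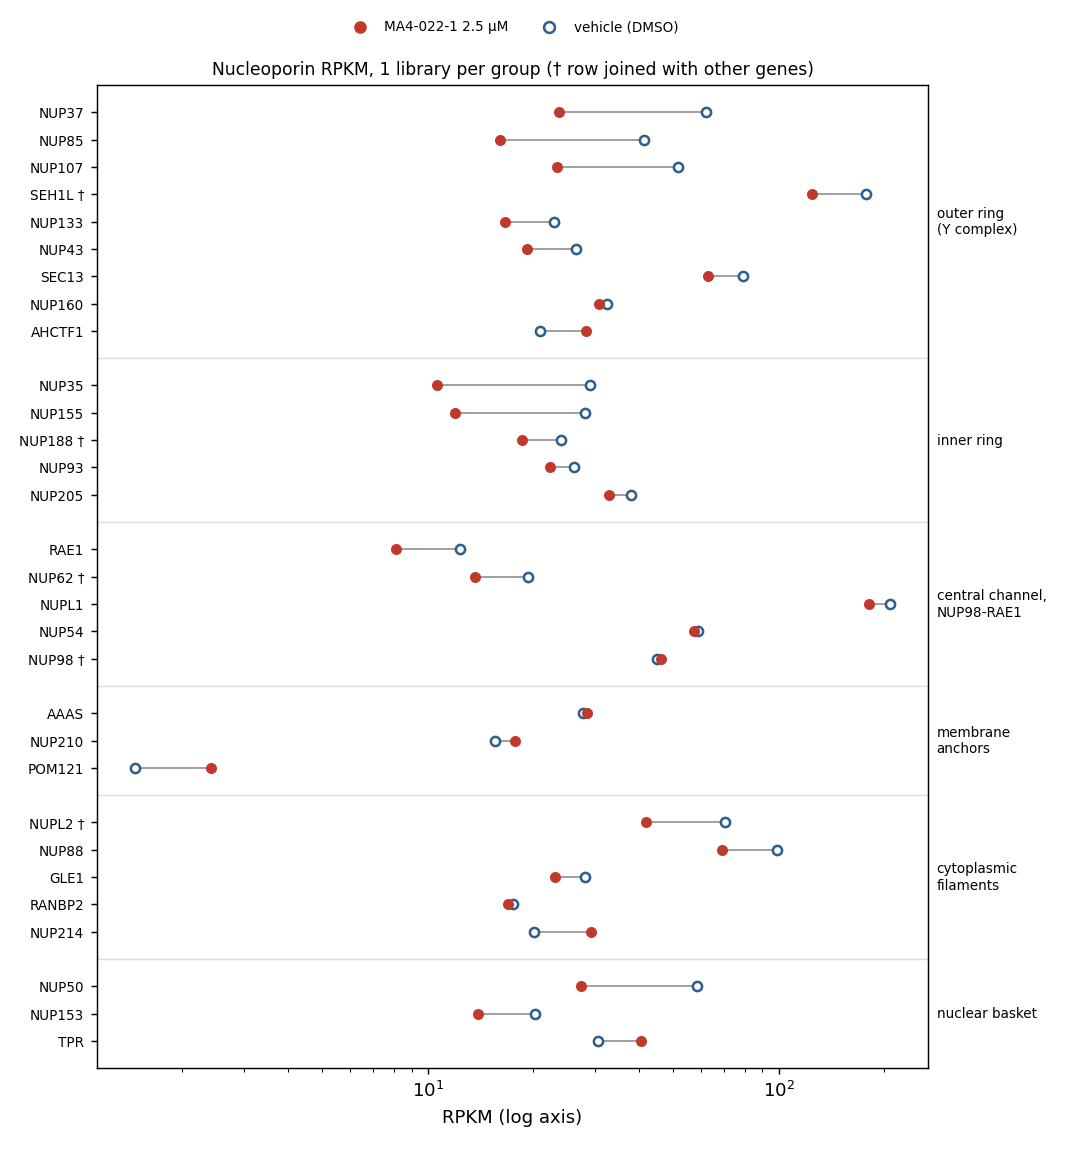
RPKM of the 30 nucleoporins on a log axis, 1 library per group, with filled circles for 2.5 µM MA4-022-1 and open circles for vehicle, grouped by place in the pore and marked † where the row is joined with other genes. NUP37, NUP85, NUP107, NUP35, NUP155 and NUP50 have the widest gaps to the left, while AHCTF1, NUP214, TPR, POM121 and NUP210 lie higher with MA4-022-1.

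The membrane anchors found by symbol were level or higher with MA4-022-1, none past 2-fold, while the gene found only by its older symbol stood on the other side. NUP210, a transmembrane glycoprotein of the pore, was at 17.7 RPKM with MA4-022-1 and 15.6 RPKM in the vehicle library. AAAS, the triple A syndrome protein that NDC1 tethers to the pore, was at 28.4 against 27.7 RPKM. POM121 was at 2.42 against 1.46 RPKM, the lowest level of any member. Its log2 ratio was 0.47, with counting bounds of 0.45 and 1.00 for the plain ratio. The near-identical copy POM121C, with which POM121 can share reads, was at 7.52 against 6.76 RPKM. TMEM48, the older symbol under which RefSeq lists NDC1, was at 24.7 against 64.6 RPKM, a log2 ratio of -1.35 and 2.55-fold lower. Counting it as a member makes 12 genes at least 2-fold lower.

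On the cytoplasmic side, 5 genes had a median of -0.27, or -0.16 without the joined row of NUPL2, with none past 2-fold. NUP214 and NUP88 form one complex at the base of the filaments and stood on opposite sides of the vehicle level. NUP214 was at 29.2 RPKM with MA4-022-1 and 20.1 RPKM in the vehicle library, a log2 ratio of 0.52, and NUP88 was at 69.2 against 98.9 RPKM, a log2 ratio of -0.51. Their counting intervals, from 0.26 to 0.82 and from -0.64 to -0.39, did not overlap. RANBP2, the large SUMO ligase of the filaments, was at 16.9 against 17.5 RPKM, and of its near-identical RGPD copies only RGPD5 reached 1 RPKM, at 1.32 against 0.655 RPKM. GLE1, which activates the helicase that releases mRNA from the pore, was at 23.1 against 28.2 RPKM. NUPL2, in a row joined with AC005082.1, was at 41.8 against 70.2 RPKM.

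The nuclear basket held genes on both sides of the vehicle level. NUP50, a mobile nucleoporin that helps importin alpha release cargo, was at 27.3 RPKM with MA4-022-1 and 58.5 RPKM in the vehicle library, or 2.10-fold lower. NUP153, which anchors the basket, was at 13.9 against 20.3 RPKM. TPR, the coiled-coil protein that forms the basket's struts, was higher at 40.5 against 30.7 RPKM, with a log2 ratio of 0.39 and counting bounds of 0.23 and 0.57.

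In the Ran cycle, RAN, its co-regulator RANBP1 and its GTPase activator RANGAP1 were all lower. RAN was at 419 RPKM with MA4-022-1 and 798 RPKM in the vehicle library, a log2 ratio of -0.93, short of 2-fold. RANGAP1 was at 28.7 against 58.6 RPKM, or 2.01-fold lower. RANBP1, which helps RANGAP1 act on Ran, was at 806 against 1269 RPKM, or 1.57-fold lower, and its locus also holds DGCR8, TRMT2A and an annotated snoRNA, whose part in that value was not tested. RCC1, the exchange factor that loads Ran with GTP, was listed at 15719 against 12112 RPKM, a level that only 4 of the expressed genes exceeded in each library. Its deposited locus (hg19 chromosome 1, 28832455 to 28865807) covers more than RCC1, since GENCODE release 29 places the snoRNA genes SNORA73A and SNORA73B inside the RCC1 gene on the same strand and the tables hold no row under either name. How much of that value is RCC1 message was not tested, so no direction is drawn for RCC1.

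The importin alpha genes, which encode the adaptors that bind classical import signals, differed among themselves. KPNA2, an adaptor often abundant in proliferating and tumour cells, had the lowest ratio of all members. It stood at 21.0 RPKM with MA4-022-1 and 59.9 RPKM in the vehicle library, a log2 ratio of -1.47 and 2.77-fold lower (hg19 chromosome 17, 66031635 to 66043042). KPNA3 was at 5.58 against 11.8 RPKM and KPNA4, of the same subfamily, at 24.0 against 28.9 RPKM. KPNA6 was higher at 28.1 against 20.9 RPKM, a log2 ratio of 0.41. KPNA1 summed to 49.8 against 48.0 RPKM over rows that lay on opposite sides of the vehicle level, at 13.9 against 7.52 RPKM and at 35.9 against 40.5 RPKM. By level, KPNA2 was first of the 5 in the vehicle library and stood behind KPNA1, KPNA6 and KPNA4 with MA4-022-1.

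The importin beta family binds Ran and carries cargo directly or through importin alpha. Of its 9 genes 1 (11.1%) was at least 2-fold lower, near the 9.56% of all expressed genes. A ratio below 0 was found for 8 of them, against 51.1% of all expressed genes. The median was -0.29, or -0.58 without the joined rows of IPO4 and IPO11. IPO5, an importer of ribosomal proteins and histones, was at 99.3 RPKM with MA4-022-1 and 253 RPKM in the vehicle library, a log2 ratio of -1.34. KPNB1, the partner of importin alpha, was at 126 against 251 RPKM, a log2 ratio of -0.98. IPO8 and IPO7, close relatives of each other, were at 25.9 against 45.9 and 79.1 against 119 RPKM. The locus of IPO7 also holds a row of its intronic snoRNA SNORA23, named after its values were seen, at 1366 against 759 RPKM. TNPO3, which imports splicing factors rich in serine and arginine, was at 17.5 against 21.6 RPKM. TNPO1 and IPO9 were nearest to the vehicle level, at 124 against 136 and 39.6 against 41.3 RPKM. IPO11, joined with KIF2A and LRRC70, was at 31.3 against 38.5 RPKM. IPO4 was read from a row joined with several genes that include NEDD8 and CHMP4A, at 222 against 181 RPKM.

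Among the groups of members, the 4 listed exportins had the lowest median, -1.02. All 4 had a ratio below 0, against 51.1% of all expressed genes, and 2 (50.0%) were at least 2-fold lower, against 9.56%. XPOT, which exports transfer RNA, was at 157 RPKM with MA4-022-1 and 412 RPKM in the vehicle library, with a log2 ratio of -1.38 and counting bounds of -1.46 and -1.32. CSE1L, which returns importin alpha to the cytoplasm, was at 40.5 against 101 RPKM, or 2.45-fold lower. XPO5, the exporter of microRNA precursors, was at 15.5 against 26.6 RPKM. XPO1, the general exporter of proteins with leucine-rich signals, was within 1.13-fold, at 105 against 118 RPKM. Exportins outside the members were also nearer to the vehicle level. XPO4 was at 6.08 against 8.22 RPKM, XPO6 at 168 against 179 RPKM and XPO7 at 32.0 against 35.2 RPKM. Their log2 ratios were -0.38, -0.09 and -0.14, so the low median holds for the 4 listed genes only.

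Karyopherins and nucleoporins were then set side by side. Of 18 karyopherins 4 (22.2%) were at least 2-fold lower, and of 30 nucleoporins 6 (20.0%) were, against 9.56% of all expressed genes. The median log2 ratio was -0.44 for karyopherins and -0.34 for nucleoporins. The difference of the medians, pore minus karyopherin, was 0.09. The SD of the log2 ratios among the genes was 0.59 for karyopherins and 0.54 for nucleoporins. It depended on the joined rows, since without them the medians were -0.66 over 16 karyopherins and -0.27 over 25 nucleoporins, a difference of 0.39. With 1 library per group the difference could not be tested.

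**Figure D2:**
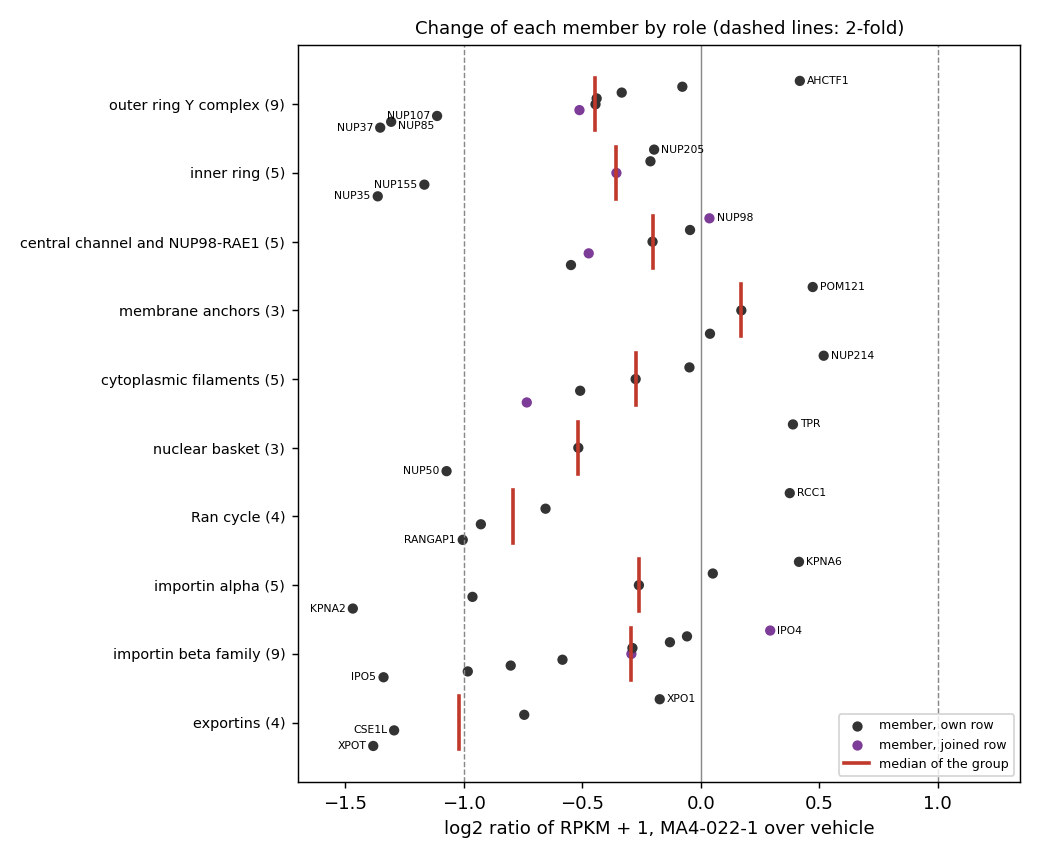
Log2 ratio of RPKM + 1, MA4-022-1 over vehicle, for each of the 52 members by role, with a bar at each group's median, dashed lines at 2-fold and members of joined rows in purple. Medians run from -1.02 for the 4 listed exportins to 0.17 for the membrane anchors found by symbol.

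**Figure D3:**
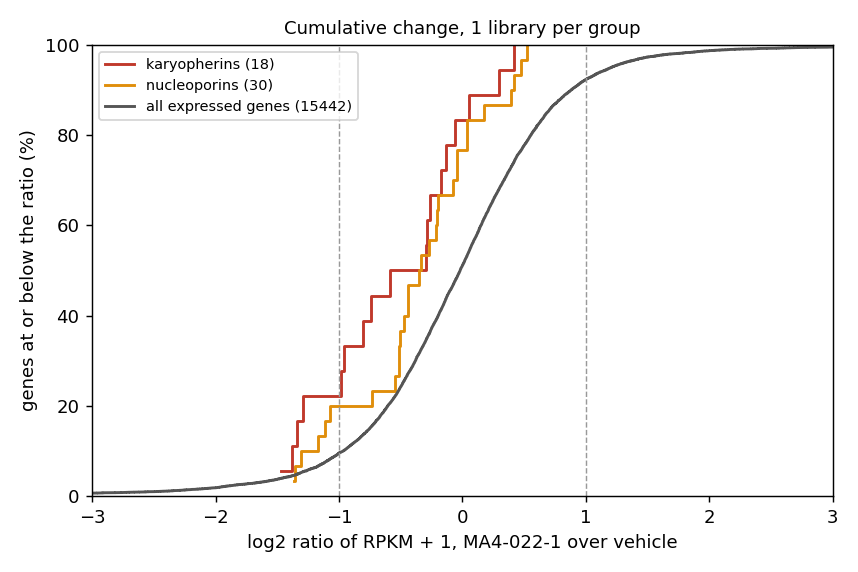
Share of genes (%) at or below each log2 ratio of RPKM + 1, MA4-022-1 over vehicle, for 18 karyopherins, 30 nucleoporins and 15442 expressed genes. The medians are -0.44 for karyopherins and -0.34 for nucleoporins against -0.02 for all expressed genes, and neither set reaches 2-fold higher.

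Across the 52 members, levels with MA4-022-1 and levels in the vehicle library kept much the same order (Spearman's rho 0.86). The log2 ratio was weakly and inversely related to the level in the vehicle library (rho -0.31), a value that enters the ratio itself, and weakly related to the length of the deposited locus (rho 0.35). These are descriptions across genes of 1 pair of libraries, and genes are not independent replicates.

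Other genes of the same pathway were taken from fixed lists. None of 12 expressed karyopherins and Ran cofactors outside the members passed 2-fold, and their median was -0.16. Among those reaching 5 RPKM, the widest differences were those of TNPO2, a transportin, at 23.5 RPKM with MA4-022-1 and 43.6 RPKM in the vehicle library, IPO13, at 19.7 against 11.5 RPKM, SNUPN, the importer of spliceosomal RNAs, in a row joined with PTPN9 at 40.4 against 66.7 RPKM, and NUTF2, which returns Ran to the nucleus, at 91.9 against 121 RPKM. Of 25 mRNA and RNA export factors, 3 (12.0%) passed 2-fold as lower and 1 (4.0%) as higher, near the 9.56% and 7.73% of all expressed genes, and their median was -0.19. The mRNA export receptor and its partner stood on opposite sides of the vehicle level, as NXF1 was 2.08-fold higher at 34.3 against 16.0 RPKM and NXT1 was lower at 1.91 against 5.32 RPKM. The export helicase DDX39A was at 12.0 against 30.0 RPKM, and ALYREF, the adaptor that loads NXF1, at 46.0 against 94.7 RPKM.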

How the data were processed

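Total RNA of C4-2B cells was sequenced as single 50 bp reads after depletion of ribosomal RNA, per the labels' protocols. TopHat2 2.0.13, Cufflinks 2.2.1 and hg19 are named in the submitters' processing notes; annotation and strand settings were not given in the sources used here. The authors deposited RPKM per gene with a locus and symbol, 62271 rows a library. Rows without a symbol (2751) and short RNAs were left out, rows of one symbol were summed, and members in joined rows were kept and marked. A gene counted as expressed at 1 RPKM in a library, and 2-fold on RPKM + 1 was the threshold. No count test was run on these normalised values.

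Steps of low RPKM in processed pseudogenes placed the totals near 19883260 reads for MA4-022-1 and 27104874 for vehicle (87.2% and 87.5% of low values within 2% of whole reads). Intervals at 95% are exact binomial intervals of the plain RPKM ratio, with reads estimated from the median transcript length in GENCODE release 29, and cover counting error only. Their width depends on that length, since a short median gives fewer reads and a wider interval. One read on 2000 nt was worth 0.0279 and 0.0205 RPKM.

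The members, lists and tests were chosen with earlier results of these data known. All members were named, with up to 4 genes per other list by size of ratio among those reaching 5 RPKM, and copies of members reaching 1 RPKM. XPO4, XPO6 and XPO7 were named as well, after their values were seen. Motifs were also chosen with those results known. Python 3.11.15, numpy 2.4.6, pandas 2.3.3, scipy 1.17.1 and matplotlib 3.10.9 were used. The ratio and depth steps were run on simulated reads with counting error only, which cannot show how far libraries vary. Values of 2 of the marker genes are not reported here.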

Additional observations from a re-analysis of the deposited data

How the results depend on the processing

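No member was at least 2-fold higher under any alternative run, at 1.5-fold included, and the medians of all members, nucleoporins and karyopherins stayed below 0 in each. The count of members at least 2-fold lower, 11 as reported, was 7 with a pseudocount of 5, where 4.27% of all expressed genes were lower. A pseudocount of 0.1 gave 12, with KPNA3 added at -1.07. Scaling to a median log2 ratio of 0 gave 10, with RANGAP1 lost at -0.98. The 1.5-fold threshold gave 18, where 20.7% of all expressed genes were lower. Equal sums over expressed genes gave 14, with RAN, KPNB1 and KPNA3 added. NUP85, NUP37, NUP35, KPNA2, IPO5, XPOT and CSE1L were past 2-fold in every alternative that kept that threshold, while NUP107, NUP155, NUP50 and RANGAP1 were not. The pore minus karyopherin median was 0.39 without joined rows, and again 0.39 with RCC1 also left out, which was chosen after seeing the data, as was counting NDC1 through TMEM48. Equal sums moved the scale by -0.12 on log2, less for low genes, and the ratios of NUP98, AAAS and KPNA1, each near 0, then turned negative. The highest row alone also turned KPNA1 negative, at -0.17. No paired analysis was possible because each group holds 1 library, so no replicate could be left out either, and intervals show counting error alone.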

Other observations

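In the nuclear lamina, the neighbour of the pore in the envelope, TMPO and LMNB1 had lower ratios than any member. Of 18 expressed lamina and envelope genes, 2 (11.1%) passed 2-fold as lower and 1 (5.56%) as higher, near the 9.56% and 7.73% of all expressed genes, and the median log2 ratio was -0.24. TMPO, a lamina-associated protein, stood at 19.9 RPKM with MA4-022-1 and 101 RPKM in the vehicle library, a log2 ratio of -2.28. LMNB1, lamin B1, was at 13.7 against 66.3 RPKM, a log2 ratio of -2.20. TOR1AIP1, an inner membrane protein that activates torsin, was higher at 70.1 against 32.2 RPKM, and the kinase VRK1, which acts on the envelope in mitosis, was at 22.2 against 44.1 RPKM. Of 11 SUMO cycle and pore-bound checkpoint genes, 2 (18.2%) were at least 2-fold lower and 0 higher, against 9.56% and 7.73% of all expressed genes. The median of the 11 was -0.27. The 2 lower genes were MAD2L1, the spindle checkpoint protein, at 12.6 against 57.3 RPKM, and SAE1, a subunit of the SUMO-activating enzyme, at 58.9 against 128 RPKM. Its partner UBA2 was at 102 against 174 RPKM and the SUMO protease SENP2 at 28.3 against 49.1 RPKM.

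Of 37 listed near-identical copies or relatives of members, 27 had a row, and 5 of these reached 1 RPKM. NUP62CL, a relative of NUP62, was at 2.86 RPKM with MA4-022-1 and 7.77 RPKM in the vehicle library. The Ran pseudogenes RANP4 and RANP1 were at 2.34 against 1.34 and 0.670 against 1.31 RPKM. On about 21 against 17 reads and 6 against 16 reads, the counting intervals of their log2 ratios ran from -0.24 to 1.77 and from -2.61 to 0.46, so both covered 0.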
